A study of Mus musculus with 8 samples.

Results

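The genes described are 8 mouse genes of epithelial junctions, keratins and secretion, chosen by symbol from the 22056 genes listed in the deposited tables: Epcam, Cldn3, Cldn4, Cldn7, Krt8, Krt18, Krt19 and Wfdc2. They were followed in the tumour cells of N2N1G allografts (N2N1G is a murine line derived from small cell lung cancer) and in those tumour cells with and without a transcript of Tfap2a. A tumour cell was a cell in which transcripts of the eGFP reporter and of the oncogene Mycl made up at least 0.2% of all transcripts counted. The labels give 3 groups of the same line: 2 allografts in the brain and 3 in the subcutis of the flank, all placed by direct injection, and 3 allografts in the liver that arrived through the tail vein. Each received 1000000 cultured cells, was taken after 3 weeks, and was sorted for healthy single cells before single-cell 3′ RNA sequencing on the 10x Genomics platform. The route and the site of the liver tumours cannot be told apart, and the strain, sex and age of the hosts are not given in the sources used here. The labels number the allografts but do not say that each came from a separate animal, so p-values measure the spread between these libraries, which may in part be technical.

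EPCAM is a surface adhesion protein of simple epithelia, and claudins form the strands of tight junctions that seal neighbouring epithelial cells to each other. Keratins 8 and 18 pair with each other into the intermediate filaments of simple epithelia, and keratin 19 can take the place of keratin 18 in such filaments. WFDC2 is a small secreted protein of airway and reproductive tract epithelium. Small cell lung cancer is a neuroendocrine carcinoma of the airway that usually keeps some of these epithelial genes, and Tfap2a encodes AP-2α, a transcription factor of ectoderm, neural crest and several epithelia.

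The tables held 38460 cells, 36797 of which passed the filters on cells, and 34719 of these were tumour cells. In brain, 71.6% and 92.0% of kept cells were tumour cells, and at least 93.8% were in each other library, with 2418 to 6276 tumour cells per library and median depths of 7971.5 to 10542 unique molecular identifiers (UMIs) per tumour cell. The eGFP transcript was seen in at least 99.4% of the tumour cells of each library. Another 1294 kept cells that failed the rule carried macrophage or microglia transcripts, 1102 of them in the brain libraries. Of 37556 distinct cell barcodes, 882 occurred in more than 1 library. Subcutaneous replicate 1 stood apart from replicates 2 and 3: 38.8% of its tumour cells held a Tfap2a UMI, against 7.95% and 10.2%. Results that rest on it are given with and without it.

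All 8 genes are protein-coding and are placed here on GRCm38. Krt8 (chromosome 15, 101996698 to 102004482, minus strand) and Krt18 (chromosome 15, 102028180 to 102032027, plus strand) are neighbours with 23697 bases between them. Cldn3 (chromosome 5, 134986214 to 134987472, plus strand) and Cldn4 (chromosome 5, 134945119 to 134946934, minus strand) are 39279 bases apart. Epcam lies on chromosome 17 (87635979 to 87651129, plus strand), Cldn7 on chromosome 11 (69964779 to 69967885, plus strand), Krt19 on chromosome 11 (100140810 to 100148665, minus strand) and Wfdc2 on chromosome 2 (164562413 to 164568510, plus strand). Promoter windows of 7 of the 8 genes were matched in the RefSeq table for GRCm38.p6. Those of Epcam and Krt8 are shown as the members called between sites, that of Cldn7 for its difference between the Tfap2a classes and that of Krt18 as the filament partner of Krt8. Both windows of Wfdc2 began inside an annotated exon and are not shown. Each sequence runs 5′ to 3′ on the strand of its gene, holds only bases outside exons and ends 1 base before the first exon in GENCODE. For Epcam and Cldn7 that is also the RefSeq start, while the sequences of Krt8 and Krt18 end 140 and 36 bases short of theirs. Capitals mark matches to the AP-2 motif GCCNNNGGC and to the E-box bound by ZEB and SNAI factors, CAGGTG, which reads CACCTG on the other strand.
Epcam, chr17:87635729-87635978, plus strand: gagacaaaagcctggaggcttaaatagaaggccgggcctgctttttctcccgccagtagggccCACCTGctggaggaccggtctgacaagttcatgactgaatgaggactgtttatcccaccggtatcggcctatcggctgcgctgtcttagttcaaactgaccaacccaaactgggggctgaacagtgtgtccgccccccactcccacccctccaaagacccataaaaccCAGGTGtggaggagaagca
Cldn7, first annotated start, chr11:69964529-69964778, plus strand: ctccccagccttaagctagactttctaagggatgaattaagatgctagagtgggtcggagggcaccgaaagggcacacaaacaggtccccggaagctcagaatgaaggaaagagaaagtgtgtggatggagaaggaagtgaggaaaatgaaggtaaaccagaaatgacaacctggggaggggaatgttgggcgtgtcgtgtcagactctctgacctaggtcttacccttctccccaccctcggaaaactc
Krt8, chr15:102004483-102004592, minus strand: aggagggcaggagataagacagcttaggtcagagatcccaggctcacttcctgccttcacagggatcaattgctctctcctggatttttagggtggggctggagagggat
Krt18, chr15:102027966-102028179, plus strand: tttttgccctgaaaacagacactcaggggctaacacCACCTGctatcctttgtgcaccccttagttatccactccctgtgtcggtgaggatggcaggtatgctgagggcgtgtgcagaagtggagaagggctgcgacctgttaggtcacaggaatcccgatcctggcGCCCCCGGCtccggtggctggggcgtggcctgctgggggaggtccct
The Epcam sequence held 2 E-boxes, 187 and 19 bases before the start. The Krt18 sequence held an AP-2 match that began 47 bases before its end (83 before the RefSeq start) and an E-box 178 bases before its end (214 before the RefSeq start). Neither motif, nor the Grainyhead-like motif AACCNGTT, occurred in the Cldn7 sequence or in the 110 bases shown for Krt8. Outside the sequences shown, E-boxes lay 14 bases before the start of Cldn4 and 111 bases before the RefSeq start of Krt8. Others lay 97 and 57 bases before the second annotated start of Cldn7, and 150 and 151 bases before the starts of Wfdc2. Among 32851 RefSeq windows of 250 bases, the AP-2 motif was in 13.7%, the E-box in 17.2% and the Grainyhead-like motif in 1.79%, counting both strands. These matches describe letters only, and binding was not measured.

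Of the 8 genes, 6 were expressed at levels that could be tested and 2 were almost absent. Cldn4, a claudin of tight epithelia, had 5 UMIs over all tumour cells, 0 in 5 of the 8 libraries and 3 at most. Krt19 had 8 UMIs, 0 in 3 libraries and 3 at most. A count of 0 allows up to 0.0578 to 0.138 CPM (a gene's UMIs scaled to 1000000 UMIs of the library's tumour cells), depending on the library. It allows up to 0.124% of cells with a UMI in the smallest of them, brain replicate 1. So the keratin 8 partner measured in these cells was Krt18, and the claudins measured among the members were Cldn3 and Cldn7.

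To compare shares of cells, tumour cells were thinned to a depth of 3000 UMIs, and 970 shallower cells were left out. At that depth, Epcam was seen in 61.8% to 90.1% of tumour cells of a library (median of the libraries 83.7%), Krt8 in 29.9% to 65.3% (54.9%) and Wfdc2 in 34.6% to 56.4% (39.9%). Krt18 was seen in 28.8% to 36.1% (32.3%) and Cldn3 in 15.8% to 22.4% (20.0%). Cldn7 was the rarest of the 6, in 1.74% to 8.91% of cells (4.81%). Without thinning, Epcam was seen in 81.8% to 97.8% of tumour cells and Cldn7 in 3.81% to 18.2%. The variance over the mean of the thinned UMIs per cell had library medians of 2.14 for Wfdc2, 2.09 for Krt8, 1.80 for Epcam, 1.57 for Cldn7, 1.39 for Krt18 and 1.11 for Cldn3. This ratio grows with the mean, so it does not rank genes of different levels by unevenness.

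Macrophages, which should lack these genes, were used as a background. Whether their transcripts of these genes came from free RNA or from another source was not tested. In the thinned macrophage cells of the 2 brain libraries, with median depths of 4274 and 3936.5 UMIs before thinning against 7971.5 and 8409 in their tumour cells, Epcam was seen in 5.59% and 11.8%, Krt8 in 3.15% and 2.96%, Wfdc2 in 2.45% and 3.55%, and Krt18 in 1.92% and 0.592%. Cldn3 was seen in 0 of 572 and 0 of 169 of these cells, which allows shares of up to 0.524% and 1.78%, and Cldn7 in 0.175% of the first. In the 88 thinned macrophage cells of subcutaneous replicate 1 (median depth 5414 UMIs before thinning, against 9392.5 in its tumour cells), Wfdc2 was seen in 9.09%, more than in brain. Epcam and Krt8 were seen in 3.41% each of these cells, Cldn3 and Krt18 in 2.27% each, and Cldn7 in 0 of 88, which allows up to 3.41%. The shares of all 6 genes in tumour cells were above these in all 3 libraries, for example 56.4% for Wfdc2 and 8.91% for Cldn7 in subcutaneous replicate 1. The other libraries held 1 to 20 such macrophage cells and gave no usable background.

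Epcam was lower in brain tumours than in liver tumours. Its level was 516 and 498 CPM in brain, 756, 908 and 990.2 in liver, and 489.6, 795 and 843 in subcutaneous tumours. Both brain libraries lay below every liver library, while subcutaneous replicate 1 lay at the brain level and the other two at the liver level. The mean was 507 ± 12.2 CPM in brain (SD, n = 2), 885 ± 119 in liver (SD, n = 3) and 709 ± 191 in subcutaneous tumours (SD, n = 3). Of the 6 tested members, Epcam and Krt8 were called between brain and liver, both lower in brain. By edgeR's quasi-likelihood test with Benjamini-Hochberg adjustment, Epcam in brain was lower than liver by a log2 fold change of -0.92 (SE 0.213, adjusted p 0.0164), against a background of 8.56% of 13931 tested genes called lower in brain and 13.2% called higher. The call was lost without brain replicate 1 (adjusted p 0.114), without brain replicate 2 (0.121) and without liver replicate 2 (0.0548). Brain against subcutaneous gave -0.49 (SE 0.209, adjusted p 0.148), where 6.13% of genes were called lower in brain and 8.94% higher. Krt8 was the only member called in that comparison by edgeR with all libraries. Without subcutaneous replicate 1 the Epcam difference was -0.69. No p is given for this setting, since the library left out is the one that stands apart in Epcam.

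Krt8 showed the clearest difference between sites. Its level was 185 and 213 CPM in brain, 343, 411 and 476 in liver, and 339.6, 366 and 403 in subcutaneous tumours. The brain libraries lay below all 6 others, as they also did for Krt18, which was not called between sites. How many of all genes separate in this way was not counted. The level in brain was 2.22-fold lower than in liver (log2 fold change -1.15, SE 0.140, adjusted p 0.00149) and 1.86-fold lower than in subcutaneous tumours (log2 fold change -0.89, SE 0.139, adjusted p 0.00593). The brain and liver difference was called under all 21 alternatives, at -1.34 to -0.87. The brain and subcutaneous difference was not called without brain replicate 1 (-0.78, adjusted p 0.0761), nor in the cells with a Tfap2a UMI alone (-0.48, adjusted p 0.125).

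Krt18, the filament partner of Krt8, differed much less. It was at 130.0 and 134 CPM in brain, 141, 143 and 166 in liver and 140.1, 161 and 158 in subcutaneous tumours, with the brain libraries again the 2 lowest. Its brain against liver difference was -0.30 (SE 0.1001, adjusted p 0.0623) and its brain against subcutaneous difference -0.22 (SE 0.0999, adjusted p 0.176), neither past the threshold. It passed the threshold against liver in 6 of the 21 alternatives, with adjusted p of 0.0251 to 0.0499, 1 of them DESeq2 (0.0406).

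The claudins and Wfdc2 showed no called difference between sites. Cldn3 was at 78.8 and 82.6 CPM in brain, 61.0, 76.0 and 94.0 in liver and 88.7, 74.9 and 84.0 in subcutaneous tumours. Cldn7 was at 16.3 and 24.4 CPM in brain, 19.8, 28.0 and 23.6 in liver, and 39.9, 7.95 and 11.5 in subcutaneous tumours. Wfdc2 was at 212 and 263 CPM in brain, 231, 209 and 248 in liver, and 470.3, 205 and 251 in subcutaneous tumours. For Cldn7 and Wfdc2, subcutaneous replicate 1 was the highest of all 8 libraries, while replicates 2 and 3 held the lowest 2 values of Cldn7. For these 3 genes the log2 differences of brain against liver were -0.04, -0.34 and -0.06 (adjusted p 0.871, 0.746 and 0.905), with SEs of 0.153 for Cldn3, 0.636 for Cldn7 and 0.305 for Wfdc2. The SE of Cldn7 was the largest of the 6 genes.

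Without subcutaneous replicate 1, the log2 fold change of Cldn7 against the other subcutaneous libraries was 1.08 for brain and 1.41 for liver. That of Krt18 was -0.27 for brain. No p is given for this setting, since the library left out is the one that stands apart in these data. With that library, the Cldn7 differences were 0.06 and 0.39 (adjusted p 0.966 and 0.786). Between liver and subcutaneous tumours none of the 6 members was called by edgeR, against 2.83% of all genes (0.933% higher and 1.9% lower in liver). Epcam came closest, at 0.43 (SE 0.185, unadjusted p 0.0445, adjusted p 0.263), followed by Krt8 at 0.26 (SE 0.120, unadjusted p 0.0585, adjusted p 0.297), and 1 of the 6 members had an unadjusted p under 0.05. DESeq2 called 0 of them. The 3 site comparisons share libraries and are not independent of each other.

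**Figure D1:**
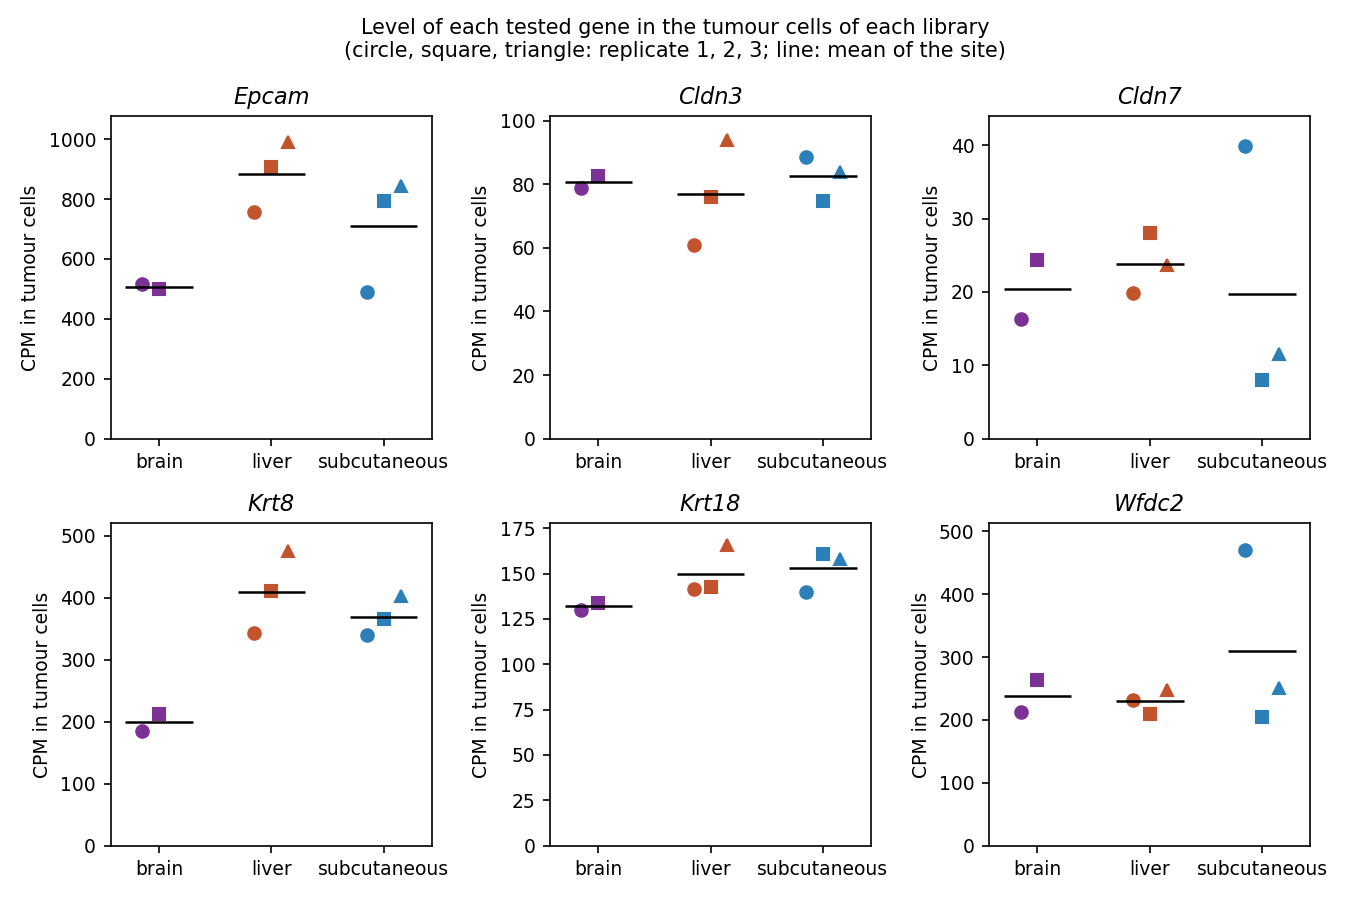
Level of each tested gene in the tumour cells of each library, in CPM from a linear axis starting at 0, by site; each symbol is 1 library and the line is the mean of the site. Krt8 lies at 185 and 213 CPM in the brain libraries and at 339.6 or more in the 6 others, and subcutaneous replicate 1 (circle) lies apart for Epcam, Cldn7 and Wfdc2.

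Transcripts of Tfap2a were found in 5436 of the 34719 tumour cells. After thinning, the share of tumour cells with a Tfap2a UMI was 8.83% ± 1.36 in brain (SD, n = 2), 4.69% ± 0.336 in liver (SD, n = 3) and 9.11% ± 8.70 in subcutaneous tumours (SD, n = 3), with 19.2% in subcutaneous replicate 1. No difference between the sites was detected when the F statistic was permuted exactly over 560 assignments (exact p 0.686), and without thinning the means were 18.2%, 12.4% and 19.0%. Without subcutaneous replicate 1, the mean of the other subcutaneous libraries was 4.09%. No p is given for that setting, since the library left out is the one that stands apart in this share. A cell without a Tfap2a UMI may still hold its transcript below detection, so the 2 classes differ by detection and not by presence or absence. Cells with a Tfap2a UMI had a higher median depth in 6 of the 8 libraries, for example 13891 against 10177 UMIs in liver replicate 1, and lower in subcutaneous replicates 2 and 3 (9087 against 9506, and 9901 against 10237).

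Within a library, tumour cells with a Tfap2a UMI had more Cldn7, Wfdc2, Krt8, Cldn3 and Krt18 and less Epcam than tumour cells without one. All 6 tested members were called, in a setting where 42.2% of 12081 tested genes were called (19.3% higher and 22.9% lower with Tfap2a). Values below are CPM of summed UMIs in the order brain, liver, subcutaneous, and the fold changes come from a fit over 16 sums with the library as a block, since both sums of a library share the tumour.

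Cldn7, the claudin of lateral cell membranes that binds EPCAM, had the largest difference of the members. It was at 7.40 and 13.7, then 10.8, 15.1 and 12.7, then 27.8, 3.10 and 5.40 CPM in cells without Tfap2a. In cells with Tfap2a it was at 55.7 and 55.2, then 61.4, 102 and 93.0, then 56.4, 61.1 and 63.9 CPM. In these sums the 2 classes did not overlap: the lowest value with Tfap2a exceeded the highest without. How many of all genes separate in this way was not counted. The ratio ran from 2.03 in subcutaneous replicate 1 to 19.7 in subcutaneous replicate 2, and the fitted difference was 5.86-fold (log2 fold change 2.55, SE 0.344, adjusted p 0.000708). Cells with a Tfap2a UMI were 7.95% to 38.8% of the tumour cells of a library and held 53.7% to 64.3% of its Cldn7 UMIs. Their share of all UMIs was 8.36% to 42.4%. With both genes read from cells thinned to the same depth, the log2 difference was 1.65 (adjusted p 0.0157). At that depth the classes overlapped. Cells of brain replicate 1 with Tfap2a held a mean of 0.107 Cldn7 UMIs. Those of subcutaneous replicate 1 held 0.115 without Tfap2a and 0.126 with it.

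Wfdc2 was the second by size. It was at 162 and 196, then 183, 166 and 203, then 333, 170.2 and 199 CPM without Tfap2a, and at 434 and 455, then 454, 459 and 536, then 658, 589.9 and 699 CPM with it. In these sums the classes again did not overlap, and the ratio was 1.98 to 3.51. The fitted difference was 2.53-fold (log2 fold change 1.34, SE 0.0962, adjusted p 1.78e-05), and at equal depth 1.18 on the log2 scale (adjusted p 0.000802). At equal depth the classes met. The mean was 1.30025 Wfdc2 UMIs per cell with Tfap2a in brain replicate 2, and 1.30031 without it in subcutaneous replicate 1.

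Krt8 was at 156 and 160.0, then 316, 375 and 441, then 299, 350.3 and 387 CPM without Tfap2a, and at 316 and 365, then 466, 620.0 and 701, then 395, 539 and 544 CPM with it. It was higher with Tfap2a in 8 of 8 libraries, while the brain cells with Tfap2a (316 and 365) lay within the range of liver and subcutaneous cells without it (299 to 441). The fitted log2 difference was 0.62 (SE 0.0943, adjusted p 0.00126), and 0.47 at equal depth (adjusted p 0.00604). Krt18 was at 125 and 127, then 137, 135 and 159.9, then 136, 158 and 155 CPM without Tfap2a, and at 152 and 154, then 161, 188 and 203, then 145, 193 and 178 CPM with it. Its difference was 0.19 (SE 0.0350, adjusted p 0.000364), also in 8 of 8 libraries. It was not called at equal depth (0.02, adjusted p 0.832) or for cells with at least 2 Tfap2a UMIs (0.13, adjusted p 0.0712). The Krt18 call held in 14 of the 16 alternatives, and the reason for its loss was not tested.

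Cldn3, the most abundant claudin of the members, was at 70.3 and 75.8, then 57.4, 69.5 and 88.1, then 73.8, 72.3 and 78.7 CPM without Tfap2a, and at 117 and 102, then 77.8, 113 and 131, then 109, 104 and 129 CPM with it. The difference was modest and even, with ratios of 1.35 to 1.67 and a log2 fold change of 0.50 (SE 0.0381, adjusted p 2.37e-08), and 0.56 at equal depth (adjusted p 1.48e-09). Epcam went the other way. It was at 522 and 501, then 779, 927 and 1015, then 522, 812 and 861 CPM without Tfap2a, and at 488 and 492, then 649, 805 and 834, then 445, 598 and 683 CPM with it. The ratio was 0.736 to 0.982, below 1 in all 8 libraries, and the log2 fold change was -0.32 (SE 0.0412, adjusted p 4.74e-05), and -0.40 at equal depth (adjusted p 0.00263).

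**Figure D2:**
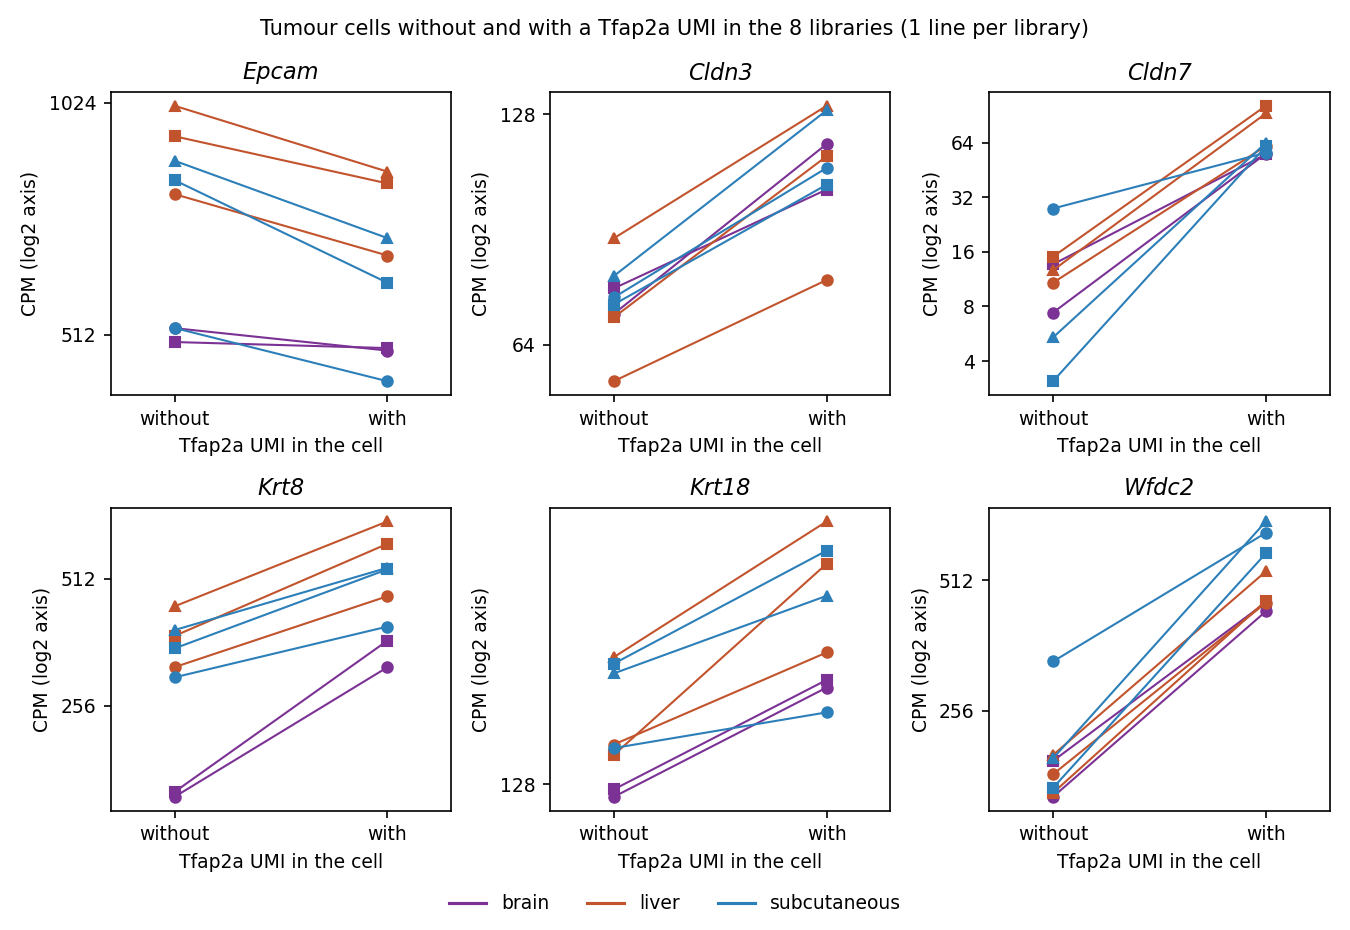
Level of each tested gene in tumour cells without and with a Tfap2a UMI, in CPM on a log2 axis that does not start at 0; each line joins both sums of 1 library, coloured by site, with circle, square and triangle for replicates 1, 2 and 3. The line of Epcam falls in all 8 libraries, from 1015 to 834 CPM in liver replicate 3, and those of the 5 other genes rise in all 8.

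The size of 2 of these differences depended on the site. A test of the site by class interaction called 11.3% of all genes. For Krt8 the log2 difference between cells with and without Tfap2a was 1.05 in brain (SE 0.0553), 0.56 in liver (SE 0.0404) and 0.41 in subcutaneous tumours (SE 0.0410), and the interaction had an adjusted p of 5.97e-05. The deficit of Krt8 in brain was therefore larger in cells without Tfap2a (156 and 160.0 CPM against 299 to 441 elsewhere) than in cells with it (316 and 365 against 395 to 701). For Epcam the difference was -0.13 in brain (SE 0.0425), -0.34 in liver (SE 0.0328) and -0.43 in subcutaneous tumours (SE 0.0335), with an adjusted p of 0.00318. The Epcam interaction was not called at equal depth (adjusted p 0.510), without the 5% deepest cells (0.131) or without brain replicate 2 (0.1001). For Cldn3 (0.48, 0.48 and 0.51), Cldn7 (2.24, 2.63 and 2.40), Wfdc2 (1.23, 1.31 and 1.42) and Krt18 (0.21, 0.26 and 0.09) the interaction was not called, with adjusted p of 0.976, 0.964, 0.895 and 0.129. Whether the Wfdc2 interaction was called depended on subcutaneous replicate 1. This is not read as a difference between sites, and no p is given, since the library left out is the one that stands apart in Wfdc2.

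More Tfap2a UMIs in a cell did not go with more of each gene. In thinned cells with 0, 1 and at least 2 Tfap2a UMIs, the mean level of Wfdc2 over the libraries of a site was 212, 480 and 416 CPM in brain, 220, 611 and 510 in liver, and 288, 685 and 619 in subcutaneous tumours. Cldn7 was at 15.4, 49.0 and 25.1 CPM in brain, 19.2, 96.5 and 84.8 in liver, and 18.6, 53.2 and 36.0 in subcutaneous tumours. For Krt8 the means were 173, 329 and 231 CPM in brain, 409, 658 and 603 in liver, and 360, 497 and 403 in subcutaneous tumours. For these genes the step from 0 to 1 UMI carried the difference: no library rose at both steps for Wfdc2 or Krt8, and 1 did for Cldn7. Cldn3 rose at both steps in 4 of the 8 libraries, and Epcam fell at both in 4. The class with at least 2 UMIs held only 22 to 173 thinned cells per library, so its values are the least certain. These values are described without a test.

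**Figure D3:**
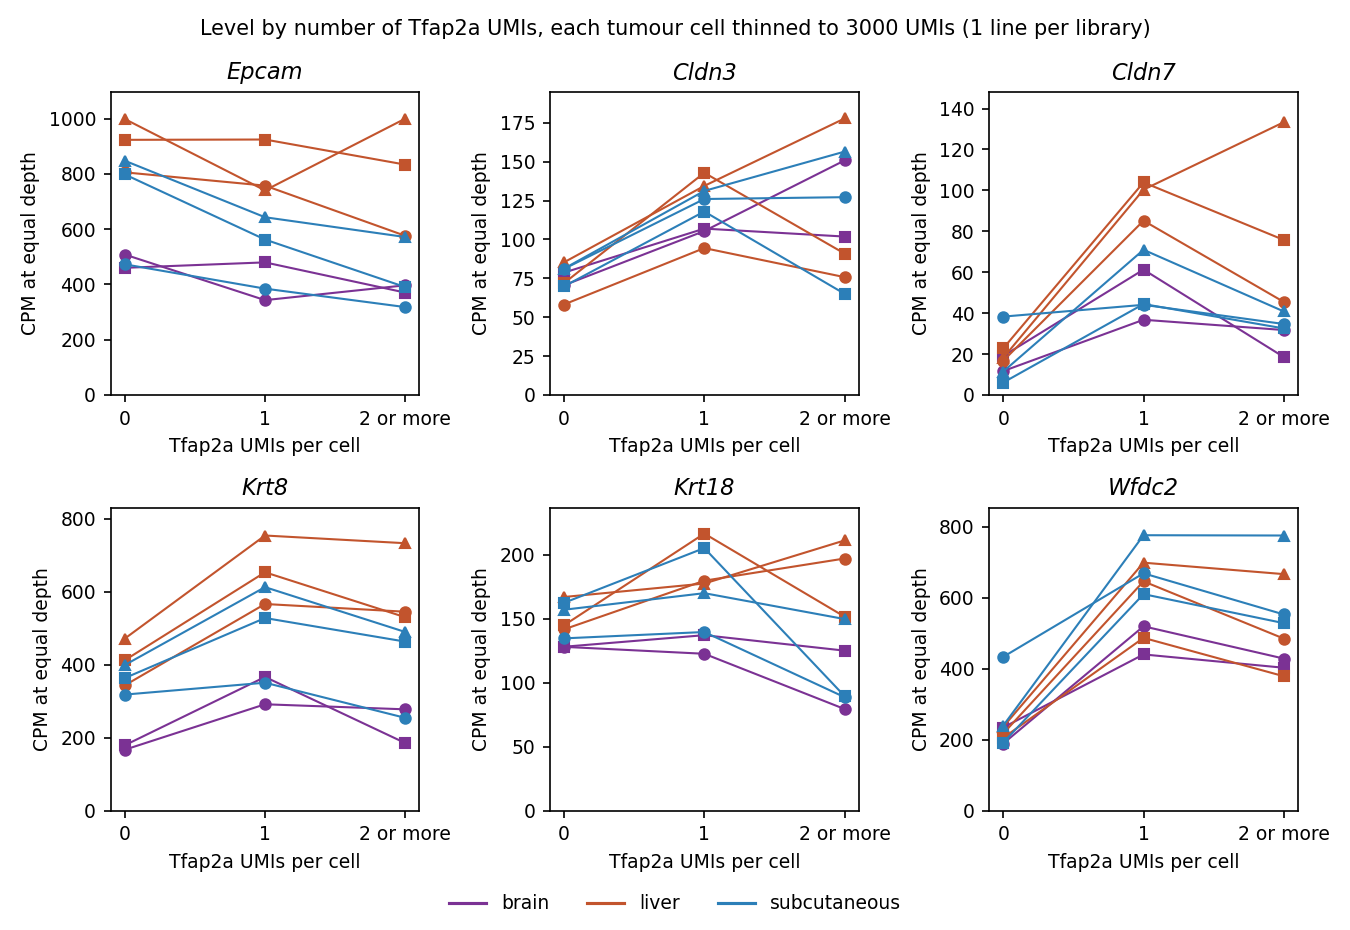
Level of each tested gene at equal depth, in CPM on a linear axis starting at 0, for tumour cells with 0, 1 and 2 or more Tfap2a UMIs; each line is 1 library, coloured by site. Wfdc2 and Krt8 peak at 1 UMI in all 8 libraries, and Cldn7 in 7 of 8.

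Detection of Tfap2a and Cldn7 in the same cell was uncommon. After thinning, 0.377% to 1.86% of the tumour cells of a library held a UMI of both, lowest in subcutaneous replicate 2 (23 of 6103 cells, exact 95% binomial interval 0.239% to 0.565%) and highest in subcutaneous replicate 1 (74 of 3983 cells, 1.46% to 2.33%). These intervals cover counting error only. The share of cells with a Cldn7 UMI was 9.70% with and 8.73% without Tfap2a in subcutaneous replicate 1, and 8.99% to 23.9% with against 1.41% to 5.29% without in the 7 other libraries. The 3 liver libraries had the highest shares with Tfap2a (19.8%, 23.9% and 21.8%), above all 5 others.

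Per cell, the 6 tested genes were detected a few at a time. At 3000 UMIs a tumour cell held UMIs of 1.85 and 1.88 of the genes on average in brain, 2.35, 2.46 and 2.60 in liver, and 2.28, 2.25 and 2.40 in subcutaneous tumours, with the brain libraries the lowest. None of the genes was seen in 11.6% and 13.8% of brain tumour cells, 1.26% to 2.29% of liver tumour cells and 9.36%, 4.34% and 3.45% of subcutaneous tumour cells. At least 5 of the genes were seen in 2.43% to 6.05% of the tumour cells of a library, and in 7.30% to 16.7% of those with a Tfap2a UMI.

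The genes were weakly correlated from cell to cell, and not all with each other. The values that follow are Pearson correlations over the thinned tumour cells of a library, averaged over 8 libraries, and the cells of a library share its preparation. The strongest was that of the filament partners Krt8 and Krt18 (mean r 0.22, 0.13 to 0.28 over libraries). Cldn7 went with Wfdc2 (0.19, 0.16 to 0.24) and with Krt8 (0.19, 0.13 to 0.31), and Krt8 with Wfdc2 (0.17, 0.06 to 0.32). The odds that a cell had a Cldn7 UMI were 2.84 to 6.09 times higher with a Wfdc2 UMI and 3.24 to 8.86 times higher with a Krt8 UMI. Epcam was nearly unrelated to Wfdc2 (mean r 0.00), with the odds ratio above 1 in 3 libraries only, and its highest correlation was with Krt8 (0.13). Cldn3 had no mean correlation above 0.09, reached with Cldn7 and with Krt8.

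**Figure D4:**
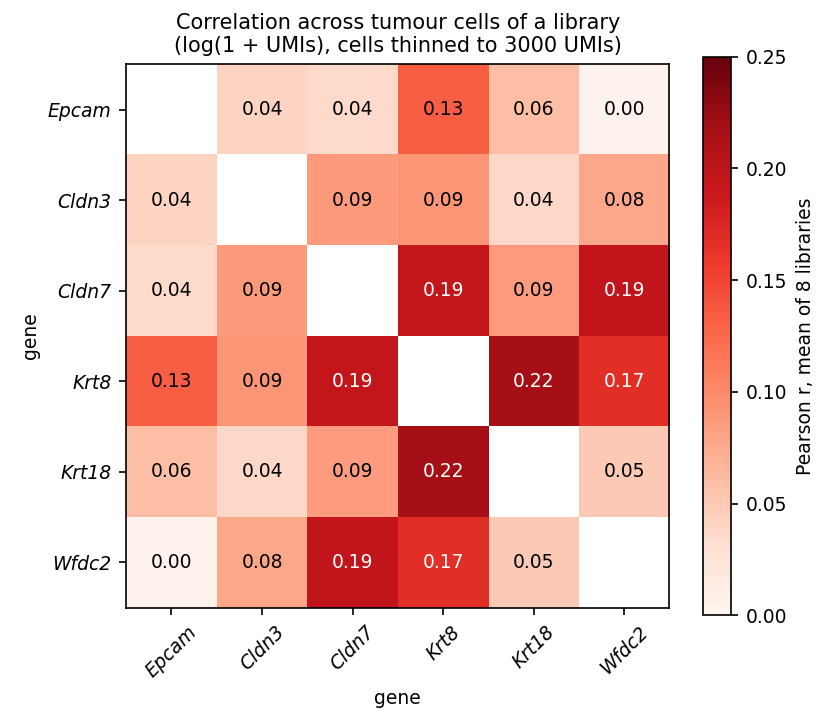
Pearson correlation between the 6 tested genes over the tumour cells of a library, each cell thinned to 3000 UMIs, as the mean of 8 libraries; darker red is higher. The Krt8 and Krt18 pair has the highest value at 0.22, followed by Cldn7 with Wfdc2 and with Krt8 at 0.19.

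The genes most like each member, by the same measure, were different for Epcam. They were Cenpa (centromere histone, mean r 0.26), Pttg1 (securin, 0.23) and Tubb4b (a β-tubulin, 0.20) for Epcam, all of them genes tied to mitosis or microtubules. Id4, an inhibitor of helix-loop-helix factors, was among the 3 most like genes of Cldn7 (0.20), Krt8 (0.19), Wfdc2 (0.18) and Cldn3 (0.08). Tmem158 (0.17) and the interferon-induced Ifitm3 (0.17) followed for Cldn7, Il17b, a cytokine, led for Wfdc2 (0.19), and Krt7, another keratin of simple epithelia, led for Krt8 (0.21) and Krt18 (0.11). Most correlations of this size in sparse counts are weak and are given as a description. In the comparison of Tfap2a classes, Id4 was higher with Tfap2a (log2 fold change 1.07, adjusted p 1.82e-06), as were Il17b (1.82, adjusted p 8.27e-05), Tmem158 (0.75, adjusted p 6.54e-06), Ifitm3 (0.83, adjusted p 0.00788) and Krt7 (0.28, adjusted p 0.000661), each in 8 of 8 libraries. Cenpa was lower (-0.20, adjusted p 6.94e-05, lower in 7 of 8), and so was Pttg1 (-0.14, adjusted p 0.00121, lower in 6 of 8). Mki67, a proliferation marker, looked at after the values of Cenpa were known, was higher (0.36, adjusted p 7.69e-06).

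Other epithelial genes were read from fixed lists to place the members. The counts for brain against liver stand against 13.2% of all genes called higher and 8.56% called lower in brain. Of 20 tested tight junction genes other than the members, 11 were lower and 2 higher in brain than in liver, with a median log2 fold change of -0.57 against 0.00121 over all tested genes. Crb3, an apical polarity protein, was at 9.77 and 11.01 CPM in brain and at 19.7 to 25.9 in liver (log2 fold change -1.30, adjusted p 0.00203). Cgn, the plaque protein cingulin, was at 17.2 and 16.7 CPM in brain and at 27.2 to 35.1 in liver (-1.01, adjusted p 0.00307). Cldn10 was higher in brain, but only at 1.11 and 1.45 CPM against 0.0202 to 0.105 in liver (adjusted p 0.00400). Cldn5, a claudin of endothelium, was at 11.3 and 0.413 CPM in brain and at 0 in every liver library, and the endothelial markers summed to 2.76 to 18.2 CPM in brain tumour cells and to 1.02 to 1.46 in liver. Their part in that call was not tested.

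Of 19 genes of adherens junctions and desmosomes, 8 were lower and 0 higher in brain than in liver (median -0.44). By edgeR 1 was higher at an unadjusted p under 0.05, and by DESeq2 1 was called higher. Cdh1, which encodes E-cadherin, was at 11.5 and 10.7 CPM in brain, 29.5, 32.0 and 26.2 in liver and 15.6, 19.4 and 21.8 in subcutaneous tumours. It was lower in brain than in liver (-1.52, SE 0.166, adjusted p 0.00104) and than in subcutaneous tumours (-0.77, SE 0.163, adjusted p 0.0175). Dsp, which links keratin filaments to desmosomes, was at 19.5 and 15.9 CPM in brain, 43.2, 39.2 and 34.1 in liver and 26.9, 30.7 and 29.7 in subcutaneous tumours (brain against liver -1.25, SE 0.149, adjusted p 0.00134). Both genes were lower in the 2 brain libraries than in all 6 others, as were Krt8 and the uncalled Krt18.

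Of 17 epithelial surface and trafficking genes, 9 were lower and 0 higher in brain than in liver by edgeR (median -0.79), with 1 higher at an unadjusted p under 0.05 and 0 called higher by DESeq2. Among the lower were Rab25, a GTPase of apical recycling (-1.49, adjusted p 0.00265), and Spint2, an inhibitor of matriptase (-0.79, adjusted p 0.00376). Of 19 epithelial regulators, 6 were lower and 5 higher: the splicing regulator Esrp2 (-1.84, adjusted p 0.00137) and Tfap2c, a paralog of Tfap2a (-2.06, adjusted p 0.00307), were lower, while Grhl3 (3.08, adjusted p 0.00193) and Elf3 (1.26, adjusted p 0.00205) were higher. Of 14 mesenchymal genes, 4 were higher and 1 lower in brain than in liver. The repressors of epithelial genes Zeb2 (1.505, adjusted p 0.00423), Zeb1 (1.17, adjusted p 0.00818) and Snai2 (1.58, adjusted p 0.0138) were higher and Twist1 was lower (-0.90, adjusted p 0.00771). Zeb2 was at 20.4 and 26.0 CPM in brain, 7.37, 6.84 and 8.57 in liver, and 30.2, 17.9 and 16.9 in subcutaneous tumours. Subcutaneous replicate 1 lay above both brain libraries, and replicates 2 and 3 lay between liver and brain. Of 5 other keratins tested, 0 were called by edgeR at any pair of sites. At an unadjusted p under 0.05 there was 1 in each comparison with liver, and DESeq2 called 1, lower in brain than in liver. Krt7, the highest of them in CPM, missed the threshold against liver (-0.38, adjusted p 0.0503). Of 17 neuroendocrine genes, Dll3 (1.18, adjusted p 0.00437) and Calca (1.00, adjusted p 0.00548) were higher in brain than in liver, a share near that of all genes. Lower were 0 by edgeR, also at an unadjusted p under 0.05, and 0 by DESeq2, against 2 by edgeR without subcutaneous replicate 1.

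Against subcutaneous tumours, where 8.94% of all genes were called higher and 6.13% lower in brain (15.1% together), brain was lower for 6 and higher for 2 of the tight junction genes, lower for 5 and higher for 0 of the adherens junction and desmosome genes (DESeq2 also 0, unadjusted p under 0.05 in 1), and lower for 3 and higher for 1 of the epithelial regulators. Without subcutaneous replicate 1, the counts lower in brain were 12, 6 and 8, and those higher 1, 2 and 3. The calls over all genes rose in that setting too, to 19.3% higher and 15.0% lower in brain than in subcutaneous tumours and to 19.1% higher and 13.8% lower than in liver. The counts of surface and trafficking genes lower in brain went from 2 to 8, and those of neuroendocrine genes higher in brain from 2 to 6. The mesenchymal list then had 6 genes higher in brain, against 0 by edgeR and by DESeq2 with all libraries and 1 at an unadjusted p under 0.05, and its count higher in brain than in liver went from 4 to 8. F11r, a junctional adhesion molecule (-1.31, adjusted p 0.00662), Pkp2, a desmosomal plaque protein (-0.94, adjusted p 0.00402), and Grhl2, a regulator of junction genes (-1.03, adjusted p 0.0254), were lower. Liver against subcutaneous tumours gave 1 call among tight junction genes, Crb3 (0.71, adjusted p 0.0381). Among adherens junction and desmosome genes 2 were called, Pkp3 (1.12, adjusted p 0.00481) and Cdh1 (0.74, adjusted p 0.0304). All of these were higher in liver. Of 19 epithelial regulators, 1 was called higher and 4 lower in liver. Of 17 surface and trafficking genes, 2 were called higher. Over all genes, 0.933% were called higher and 1.9% lower in liver.

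Between the Tfap2a classes the counts of these lists stand against 19.3% of all genes called higher and 22.9% called lower. Of 17 tight junction genes, 5 were lower and 2 higher with Tfap2a (median -0.07 against 0.000721 over all genes), with Patj, a polarity scaffold (-0.91, adjusted p 7.05e-06), Cldn23 (-0.61, adjusted p 8.78e-06), Cldn8 (-0.88, adjusted p 7.29e-05) and Cldn9 (-1.03, adjusted p 0.00183) lower. So Cldn3 and Cldn7 were higher with Tfap2a while 3 other claudins were lower. Of 18 adherens junction and desmosome genes, 4 were higher and 1 lower, and Cdh1 was not called (-0.13, adjusted p 0.236). Krt7 and Krt10 were higher (0.28 and 0.49, adjusted p 0.000661 and 0.00164) and 3 other keratins were not called. The mesenchymal list had 4 of 9 higher, Zeb2 (0.90, adjusted p 3.12e-08), Zeb1 (0.40, adjusted p 0.000254) and Snai2 (0.96, adjusted p 0.000372) among them, and 3 lower. Of 17 neuroendocrine genes, 4 were higher and 9 lower, Dll3 (-0.87, adjusted p 2.24e-05) among them. Of 17 epithelial regulators, 5 were higher, led by Foxa2 (0.89, adjusted p 1.62e-08), and 7 lower, led by Nkx2-1 (-0.36, adjusted p 2.63e-08) and Sox9 (-1.0001, adjusted p 4.32e-08).

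**Figure D5:**
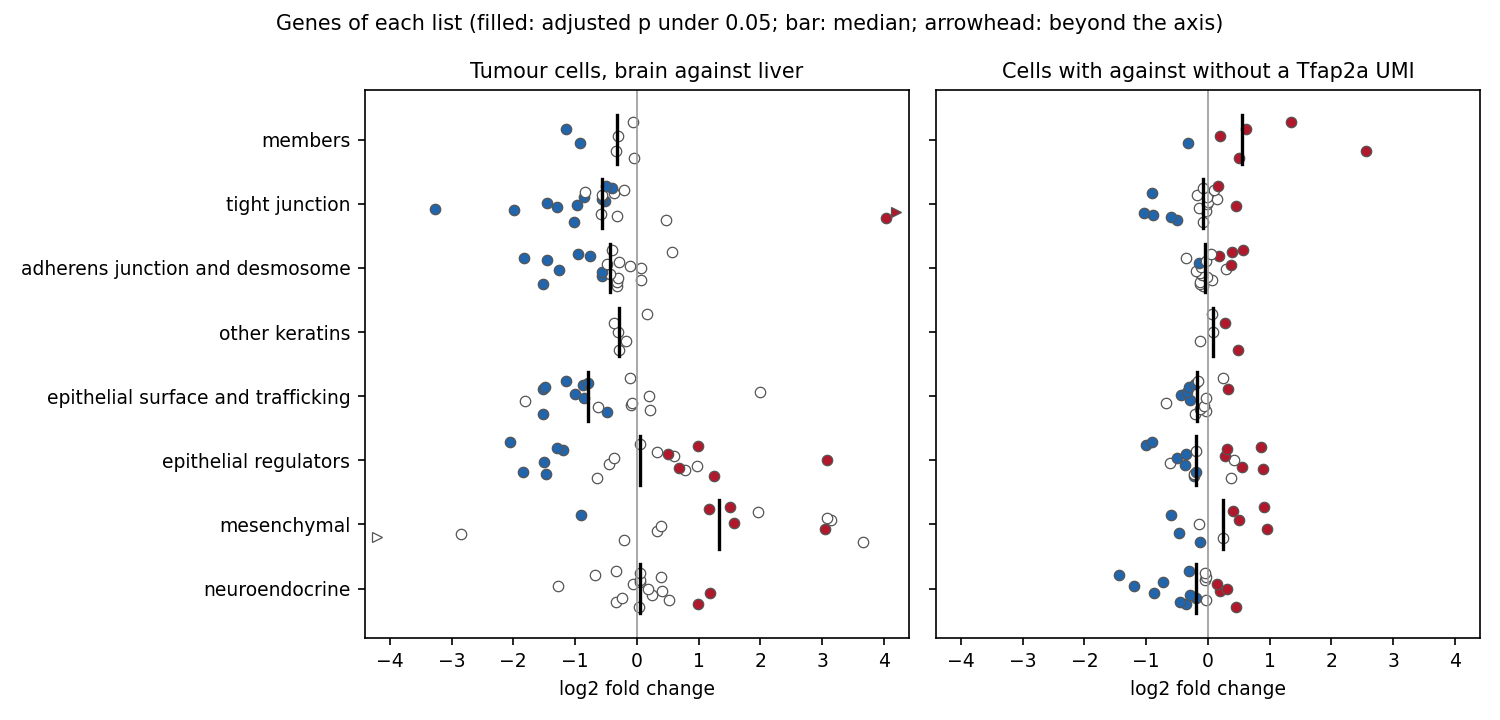
Log2 fold change of every tested gene of each list, in tumour cells of brain against liver (left) and in cells with against without a Tfap2a UMI (right); filled points have an adjusted p under 0.05, red higher and blue lower, bars are list medians and arrowheads lie beyond the axis. In the left panel the tight junction, adherens junction and surface lists have medians of -0.57, -0.44 and -0.79, and in the right panel their medians lie between -0.18 and -0.05.

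Host cell transcripts in the tumour cells moved with the site. The 8 macrophage markers, all of them above 0, summed to 71.0 and 468 CPM in brain tumour cells, 3.71 to 11.6 in liver and 0.751 to 22.3 in subcutaneous tumours. The 6 oligodendrocyte markers summed to 165 and 236 CPM in brain and 47.7 to 52.6 in liver, and the 6 astrocyte markers to 63.6 and 85.4 and to 17.4 to 21.5. Markers of choroid plexus epithelium, an epithelium that also expresses keratins, summed to 15.0 and 67.1 CPM in brain and 4.29 to 6.99 in liver, all 10 above 0 in brain. Hepatocyte markers summed to 17.1 to 45.5 CPM in liver, with all 10 above 0, and to 51.4 and 80.5 in brain, with 3 of them at 0. Trf (34.8 and 16.9 CPM) and Ttr (11.5 and 60.7 CPM, also a choroid plexus marker) made up most of the brain sums and were called higher in brain. Alb, Apoa1, Apoa2 and Fgb were called lower in brain than in liver, with Alb at 0 in both brain libraries and at 0.753 to 8.65 CPM in liver. Cholangiocyte markers, which include Krt7 and Sox9 that the tumour cells express, summed to 327 and 386 CPM in brain and 376 to 449 in liver, where none of the 8 was at 0. Skin keratinocyte markers summed to 27.9 to 50.02 CPM in subcutaneous tumours, with 2 of 10 at 0, and to 27.2 and 37.5 in brain. Their part in the site differences of the members was not tested. Between the Tfap2a classes of brain, macrophage markers summed to 64.0 and 388 CPM with Tfap2a and to 73.5 and 486 without.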

How the data were processed

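Each of 8 libraries was deposited by the authors as a matrix of UMI counts per gene and cell, whole numbers in the 3.0.0 format per the file headers. Per the submitters' processing notes, Cell Ranger, STAR and the build mm10 were used, and the annotation and versions are not given in the sources used here. The lowest count of a deposited cell was 501 UMIs, so barcodes had been filtered. Gene positions come from GENCODE (GRCm38) by gene identifier.

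Cells were retained from 500 genes upward if mitochondrial UMIs did not exceed 10%, and tumour cells were those with eGFP plus Mycl at 0.2% of UMIs or more. Among kept cells, 430 lay between 0.1% and 0.2%, and 708 between 0.2% and 0.3%. Macrophage cells had at least 3 UMIs over at least 3 macrophage genes and failed that rule. No doublet caller was run, and an alternative left out the 5% deepest cells. The labels give no batch.

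UMIs of tumour cells were summed per library (21689100 to 62047000) and, for the Tfap2a comparison, per library and class. Sums were tested in R 4.3.3 with edgeR 4.0.16 (limma 3.58.1; TMM, filterByExpr, robust quasi-likelihood F tests, Benjamini-Hochberg over all genes tested, threshold 0.05), with 5 residual degrees of freedom for sites and 7 for the Tfap2a classes. Tfap2a itself was not tested between its classes. CPM are UMIs scaled to 1000000 summed UMIs. Cell-level shares and correlations used Python 3.11.15 with numpy 2.4.6, scipy 1.17.1 and pandas 2.3.3 on cells thinned to 3000 UMIs. The fits were tested on simulated data. SE is the absolute log2 fold change over the square root of F. A count of 0 was given its limit of 3 counts, and intervals are exact 95% binomial. Alternatives covered DESeq2 1.42.0, size factors, filters, thinning, other tumour rules, replicate numbers as a block and each library left out. Counts for the lists by DESeq2 and without subcutaneous replicate 1 were alternatives chosen after seeing the data.

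The members and the gene lists were chosen with earlier results of these data known. Genes named from lists are up to 4 called genes per list and comparison with the smallest p. For likeness they are the 3 genes with the highest mean within-library correlation among genes in at least 5% of cells. For the Tfap2a classes they are the 8 genes per direction with the largest fold change among called genes with at least 10 CPM and the same direction in all libraries. Genes named beyond this (Cldn5, Krt7, Mki67, Cdh1 and the Zeb genes in other comparisons) were named after their values were seen. RefSeq held no promoter entry that matched Krt19, which is named only.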

Additional observations from a re-analysis of the deposited data

Results flagged for a closer look

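The difference between tumour cells with and without a Tfap2a UMI was unequal between the 3 sites for 2 of the 6 tested genes, by a test of the interaction itself. Over all 12081 tested genes, 11.3% were called by that test. For Krt8, the keratin 8 gene, the log2 differences in brain, liver and subcutaneous tumours were 1.05, 0.56 and 0.41 (edgeR, adjusted p 5.97e-05), higher with Tfap2a in 8 of 8 libraries. For Epcam they were -0.13, -0.34 and -0.43 (edgeR, adjusted p 0.00318), lower with Tfap2a in 8 of 8 libraries. Over the 15 alternatives the adjusted p of the Krt8 interaction was 4.25e-31 to 0.00393, and that of Epcam 9.04e-10 to 0.510. The Epcam interaction was not called at equal depth, without the 5% deepest cells or without brain replicate 2.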

How the results depend on the processing

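The brain against liver call of Krt8 and the Tfap2a class calls of Cldn3, Cldn7, Krt8, Wfdc2 and Epcam kept their direction and side of the threshold under every alternative run (21 and 16 settings). Leaving out 1 library moved the calls between brain and liver (3032) to 1112 to 4557, between brain and subcutaneous (2099) to 383 to 4754, between liver and subcutaneous (394) to 33 to 1024, and those of the interaction of site and Tfap2a class (1365) to 578 to 2114. The lowest counts of the 2 brain comparisons came without brain replicate 1 and the highest of all 4 without subcutaneous replicate 1. Without 1 library the excess of the Tfap2a share in brain ran from 0.620 to 4.44 percentage points, against 1.93 with all.

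With only cells with a Tfap2a UMI, the counts of the 3 site comparisons were 1239, 597 and 704. DESeq2 gave 1055 for liver against subcutaneous and 495 for the interaction. Fitting only the sites compared gave 728 for brain against subcutaneous. At equal depth the Tfap2a classes gave 2237 calls (5095 before) and the interaction 250, and at least 2 Tfap2a UMIs gave 820 for the interaction. With the replicate number as a block, the calls were 1378 for brain against subcutaneous and 229 for liver against subcutaneous. Deviations of same-numbered libraries from the mean of their site correlated at -0.235 to 0.241. With 2 or 3 libraries per site, these values cannot settle whether the numbers pair the libraries. Without the library as a block (no replicate block), the Tfap2a classes gave 2958.

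The direction changed in 21 cases, 20 of them for differences of members that were not called before and 1 for Ppl, which was. For Cldn7, brain against subcutaneous, the values were -0.082 at equal depth, -0.0016 with the eGFP rule, -0.13 and -0.073 in cells without and with Tfap2a, and -0.30 to 1.08 when 1 library was left out (below 0 without subcutaneous replicate 2 or 3 or brain replicate 2). For Cldn3 the replicate block gave 0.040, 0.035 and -0.0054 for brain against liver, brain against subcutaneous and liver against subcutaneous, equal depth gave -0.0029 for the last, and leaving out 1 library gave -0.18 to 0.10, -0.076 to 0.025 and -0.14 to 0.15. For Wfdc2, leaving out 1 library gave -0.23 to 0.11 for brain against liver (above 0 without brain replicate 1), and -0.58 to 0.062 and -0.53 to 0.12 for brain and liver against subcutaneous (above 0 without subcutaneous replicate 1). Ppl, which encodes periplakin, called at 0.58 between the Tfap2a classes (adjusted p 0.00373), gave -0.012 at equal depth. The cause of these changes was not tested. Cldn4 and Krt19, with 5 and 8 UMIs over all tumour cells, were too rare to test, and the number of libraries limits the site comparisons.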

Other observations

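Outside the epithelial genes, the genes with the largest called differences between cells with and without a Tfap2a UMI were as follows, by the edgeR fit with the library as a block, a mean of at least 10 CPM and the same direction in every library. Higher in 8 of 8 libraries were Bcl11a (log2 fold change 2.94, adjusted p 0.000174), a zinc finger transcription factor, Nkx2-2 (2.70), a homeobox factor of neuroendocrine fate, Calcr (2.45), the calcitonin receptor, Ceacam10 (2.23), Tead2 (2.21), a partner of the Hippo pathway, Zfp536 (2.00), Gpld1 (1.96) and Hs3st6 (1.94). Lower in 8 of 8 were Tm4sf1 (-2.49), Des (-2.32), the intermediate filament of muscle, En1 (-1.98), a homeobox factor, Resp18 (-1.79), a protein of secretory granules, Zcchc12 (-1.73), Tmem171 (-1.68), Gpc3 (-1.68), a glypican, and Ntsr2 (-1.64), a neurotensin receptor. Bcl11a was at 34.1 and 37.5 CPM in brain, 16.01 to 18.8 in liver and 46.6, 27.6 and 36.8 in subcutaneous cells with Tfap2a, against 1.53 to 12.2 in cells without it over all libraries, and its highest value without Tfap2a was in subcutaneous replicate 1. Tm4sf1 and Des were highest in brain cells without Tfap2a (56.1 and 91.9 CPM, and 40.3 and 55.4 CPM), followed by subcutaneous replicate 1 (32.8 and 22.4 CPM).

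Of 5 tested genes of airway and alveolar cells, 4 were lower with Tfap2a and 0 higher by edgeR, with 0 higher at an unadjusted p under 0.05, also by DESeq2. Over all genes 19.3% were called higher and 22.9% lower. The surfactant gene Sftpc led them (-1.24, adjusted p 2.50e-06), and its level over all tumour cells was lowest in subcutaneous replicate 1 (142 CPM) and in the brain libraries (222 and 191 CPM), against 278 to 365 CPM elsewhere.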
